A study of Mus musculus with 7 samples.

Results

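The late neutrophil granule genes described here are Camp, Ltf, Ngp, Lcn2, Fcnb, Mmp8, Mmp9, Wfdc21, Chil3 and Cd177. They were taken by symbol as genes of the specific and gelatinase granules and of proteins that maturing granulocytes secrete or carry on their surface. All 10 were found among the 35976 symbols of the count table, and all 10 had reads in every library and passed the filter on low counts, which kept 14679 symbols. RNA was sequenced from lineage-negative cells of C57BL/6 mouse fetal liver at E14.5, that is, from the cells left after magnetic removal of those with markers of mature blood lineages. The 4 knockout libraries came from CD45.2(+) embryos that carried Vav1-iCre and Brd9fl/fl, and the 3 control libraries from CD45.2(+) Brd9fl/fl embryos without the recombinase. Both groups had the floxed Brd9 alleles. Vav1-iCre is a recombinase driven by a promoter active in blood cells, so the deletion was not aimed at liver or stromal cells, and what the recombinase does by itself cannot be told apart from the loss of Brd9, a chromatin protein with a bromodomain that belongs to a variant BAF remodelling complex (non-canonical BAF). The labels do not say whether a library is 1 embryo or a pool, so the p-values reflect only how these libraries vary, and some of that variation may be technical.

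Neutrophils fill their granules in order as they mature. The azurophil granules are filled first, at the promyelocyte stage, with enzymes such as myeloperoxidase and elastase. The specific granules, with lactoferrin, cathelicidin and lipocalin, follow at the myelocyte stage, and the gelatinase granules come last. In mice and humans the transcription factor C/EBP epsilon is needed for the specific granules. Fetal liver is the main site of blood formation in mid-gestation.

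Brd9 had 8.57, 11.9, 13.2 and 12.2 CPM (reads per 1000000 reads of the scaled library) in the knockout libraries, against 30.6, 32.2 and 36.5 CPM in the controls, so every library lay on the side of its label. Total counts per library ran from 18748885 to 23571878. Progenitor markers were present: Kit averaged 195 ± 24 CPM in knockouts and 294 ± 24 CPM in controls (SD, n = 4 and 3). Ly6g, a surface marker of mature neutrophils, had at most 2 reads in any library. Other genes of late neutrophils ranged from plentiful to nearly absent. Itgam had 23.3 to 56.0 CPM in knockouts and 45.3 to 87.7 CPM in controls. S100a8 had 164 to 470 CPM in knockouts and 365 to 623 CPM in controls. In contrast, Retnlg had at most 7 reads in any library, Mmp25 at most 23 and Lrg1 at most 25. The lack of Ly6g alone does not show that maturing granulocytes were absent from the fraction, and whether they were present was not tested. The fraction also held hepatocyte RNA, with a summed level over 7 of 7 markers of 10667 to 19153 CPM in knockouts and 8524 to 14832 CPM in controls. Knockout replicate 3 stood apart. It had the highest knockout level of all 10 late granule genes, and its 4 T lineage markers (Cd3e, Cd3g, Lck and Cd4) summed to 37.2 CPM, against 2.13 to 4.70 CPM in the other knockouts and 2.72 to 3.77 CPM in the controls. Cd3g (18.2 CPM), Lck (14.7 CPM) and Cd3e (3.46 CPM) led that sum, while Cd4 (0.758 CPM) lay inside its control range of 0.368 to 1.45 CPM. Cd3e had no read outside that library. Whether the source of these transcripts has any part in the granule gene levels was not tested, and the fold changes without knockout replicate 3 are given below.

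The late granule genes did not all move together. Camp, Fcnb, Wfdc21 and Chil3 fell in the knockouts by between 8.71-fold and 39.5-fold, and each had all 4 knockout libraries below all 3 controls, as did 6.81% of all tested genes. Ltf, Lcn2, Cd177 and Mmp9 had knockout means of 58.6% to 74.6% of the control means with overlapping libraries and did not pass the test. Ngp stood between, at 33.5% of control, and Mmp8 was at 396% of control; neither passed. So 4 of 10 were called lower and 0 of 10 higher in edgeR's quasi-likelihood test, with a Benjamini-Hochberg adjusted p under 0.05 over all tested genes. Over all tested genes 0.545% were called lower and 0.0136% higher. At an unadjusted p under 0.05 there were 6 of 10 (5 lower, 1 higher), against 10.9% of all genes. DESeq2 and limma-voom each called 4, where DESeq2 called 2.68% of all genes. Of the fold changes 9 were negative. The median log2 fold change of the 10 genes was -1.17, beside 0.011 over all tested genes, and it was -1.70 without knockout replicate 3. In bulk RNA, fewer cells of a type and less RNA per cell cannot be told apart.

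**Figure D1:**
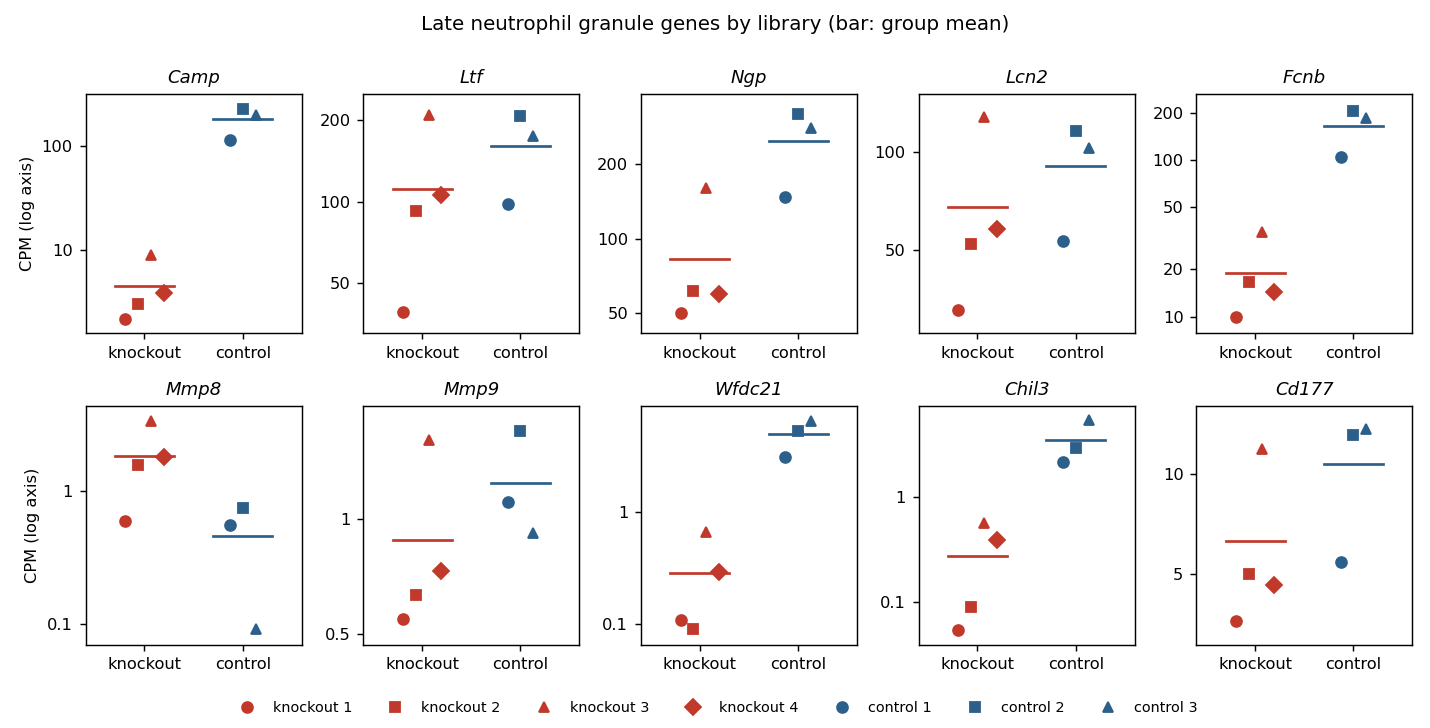
Level of each late granule gene in each library, in CPM on a log axis, with knockouts on the left and controls on the right of each panel; points are libraries and bars are group means. Camp, Fcnb, Wfdc21 and Chil3 have no overlap between groups, and knockout replicate 3 (triangle) is the highest knockout in all 10 panels.

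The DNA before the starts of genes that behaved differently is shown so that the fallers (Camp, Fcnb, Chil3) can be read beside Ngp, Ltf and Mmp8. Sequences are from RefSeq, build GRCm38.p6, 5′ to 3′ on the gene's strand, and 8 of the 10 genes had an entry. Each is the part of the 250 bases before the RefSeq start that no annotated exon of the gene covers, which leaves 89 bases for Camp. Capitals mark matches, on either strand, to TTGCNNAA for C/EBP, GAGGAA for PU.1 (encoded by Spi1), TGTGGT for RUNX and AAATCA for GFI1; no marked matches overlap.
Camp, chr9:109849618-109849706, minus strand: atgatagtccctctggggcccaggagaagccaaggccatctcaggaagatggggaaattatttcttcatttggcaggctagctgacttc
Fcnb, chr2:28084911-28085128, minus strand: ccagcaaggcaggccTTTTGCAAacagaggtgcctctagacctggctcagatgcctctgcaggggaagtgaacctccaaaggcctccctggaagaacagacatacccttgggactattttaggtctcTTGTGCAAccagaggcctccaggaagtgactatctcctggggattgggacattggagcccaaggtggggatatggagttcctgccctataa
Chil3, chr3:106167565-106167814, minus strand: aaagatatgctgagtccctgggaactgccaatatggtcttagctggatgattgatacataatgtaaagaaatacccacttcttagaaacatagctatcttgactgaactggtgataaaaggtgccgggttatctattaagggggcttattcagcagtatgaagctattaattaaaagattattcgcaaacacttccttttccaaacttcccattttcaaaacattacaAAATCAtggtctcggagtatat
Ngp, chr9:110419558-110419746, plus strand: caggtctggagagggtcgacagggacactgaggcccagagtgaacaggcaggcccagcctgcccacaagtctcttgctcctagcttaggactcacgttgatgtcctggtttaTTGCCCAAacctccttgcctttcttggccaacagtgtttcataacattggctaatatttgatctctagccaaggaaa
Ltf, chr9:111019042-111019270, plus strand: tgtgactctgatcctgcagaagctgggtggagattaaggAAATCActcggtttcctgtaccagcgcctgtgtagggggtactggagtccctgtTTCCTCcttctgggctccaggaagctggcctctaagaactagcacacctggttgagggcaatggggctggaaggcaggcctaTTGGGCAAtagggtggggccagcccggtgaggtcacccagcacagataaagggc
Mmp8, chr9:7558179-7558428, plus strand: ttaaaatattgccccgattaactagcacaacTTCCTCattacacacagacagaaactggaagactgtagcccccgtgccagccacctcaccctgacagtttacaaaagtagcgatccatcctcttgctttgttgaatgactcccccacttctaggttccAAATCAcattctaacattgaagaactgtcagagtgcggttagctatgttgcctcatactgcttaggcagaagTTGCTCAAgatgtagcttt
Over the whole windows of 250 bases, the C/EBP letters were in 5 of the 8 genes (Ltf, Ngp, Lcn2, Mmp8 and Fcnb), against 9.56% of the 32851 windows in the table. Fcnb held 2 such matches, at positions -235 and -123 from the start, and Ngp held 2, of which the one at -11 lies in the part not printed. The PU.1 letters were in 4 of 8 (Ltf, Lcn2, Mmp8 and Cd177), against 23.3% of all windows, and the GFI1 letters in 3 of 8 (Ltf, Mmp8 and Chil3), against 12.4%. None of the 8 held the RUNX letters, which 14% of all windows hold. These are matches of letters and not measured binding sites.

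The cathelicidin gene and its relative differed in size of change. Camp encodes the mouse cathelicidin, an antimicrobial peptide of the specific granules. It had 2.18, 3.03, 8.95 and 3.85 CPM in knockout replicates 1 to 4, against 114, 225 and 199 CPM in control replicates 1 to 3. The highest knockout library held 3.98% as much as the highest control. Its log2 fold change was -5.31 (SE 0.42, edgeR adjusted p = 0.0015), and Camp was called in all 15 alternative fits, with an adjusted p of at most 0.014. Ngp encodes neutrophilic granule protein, a relative of the cathelicidins. It had 50.1, 61.3, 161 and 59.7 CPM in the knockouts, against 147, 317 and 280 CPM in the controls. Knockout replicate 3 lay above the lowest control, and the other knockouts lay below all controls. For Ngp the log2 fold change was -1.58 (SE 0.41, edgeR adjusted p = 0.158). Without knockout replicate 3 it was -2.12 with an adjusted p of 0.011, past the threshold, as was the fit with no filter on low counts (adjusted p = 0.027), and the adjusted p over all alternatives ran from 0.011 to 0.452. Reads of Camp and of Ngp relative to Ltf and to Lcn2 are given below. Camp was not set against Ngp directly.

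The genes that bind iron and siderophores overlapped between groups. Ltf encodes lactoferrin, an iron-binding protein that defines the specific granules. It had 38.8, 91.9, 209 and 105 CPM in the knockouts, against 98.1, 208 and 175 CPM in the controls. Knockout replicate 3 was just above the highest control, and knockout replicates 1 and 2 were below every control. The log2 fold change was -0.53 (SE 0.46, edgeR adjusted p = 0.721). Lcn2 encodes lipocalin 2, which binds bacterial siderophores; hepatocytes also make it in mice under inflammation. It had 32.8, 52.5, 128 and 58.1 CPM in the knockouts, against 53.4, 116 and 103 CPM in the controls. Its libraries stood in the same order as those of Ltf, with knockout replicate 3 above every control. For Lcn2 the log2 fold change was -0.42 (SE 0.41, edgeR adjusted p = 0.753). Neither gene was called in any of the 15 alternatives.

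Fcnb encodes ficolin B, a lectin of myeloid cells that recognises sugars on microbes. It had 9.99, 16.8, 34.96 and 14.3 CPM in the knockouts, against 105, 207 and 186 CPM in the controls. All knockouts lay well below the lowest control. The log2 fold change was -3.12 (SE 0.39, edgeR adjusted p = 0.010). The call was lost without control replicate 3 (adjusted p = 0.054) or knockout replicate 2 (adjusted p = 0.054), where the log2 fold change was -3.03 and -3.07; over all alternatives the adjusted p ran from 2.8e-07 to 0.054. Its relative Fcna, a ficolin of macrophages in mice, averaged 4.88 CPM in knockouts and 14.49 CPM in controls (log2 fold change -1.56, edgeR adjusted p = 0.271).

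The matrix metalloproteinases had few reads and fold changes of opposite sign, neither past the test. Mmp8, the neutrophil collagenase, had 11, 35, 71 and 37 reads in the knockouts, against 12, 18 and 2 reads in the controls. Scaled to the libraries this is 0.601, 1.58, 3.36 and 1.80 CPM in the knockouts and 0.553, 0.745 and 0.092 CPM in the controls. Knockout replicates 2 to 4 lay above every control and knockout replicate 1 inside the control range. The log2 fold change of Mmp8 was 1.97 (SE 0.67, edgeR adjusted p = 0.320), and it was positive and not called in all 15 alternatives. Mmp9, gelatinase B, had 10, 14, 34 and 15 reads in the knockouts, against 24, 41 and 20 reads in the controls. Only knockout replicate 3 reached the control range, at 1.61 CPM. Its log2 fold change was -0.49 (SE 0.43, edgeR adjusted p = 0.723).

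Wfdc21 and Chil3 encode secreted proteins, were low in the controls and fell in the knockouts. Wfdc21, a small protein with a WAP four-disulfide core domain, had 2, 2, 14 and 6 reads in the knockouts, against 67, 125 and 140 reads in the controls. Its mean was 0.289 ± 0.266 CPM in knockouts and 4.90 ± 1.69 CPM in controls (SD, n = 4 and 3), a log2 fold change of -4.05 (SE 0.52, edgeR adjusted p = 0.011). Chil3, also called Ym1, is a chitinase-like lectin of myeloid cells. It had 1, 2, 12 and 8 reads in the knockouts, against 47, 70 and 116 reads in the controls. Its mean was 0.276 ± 0.246 CPM in knockouts and 3.47 ± 1.66 CPM in controls (SD, n = 4 and 3), a log2 fold change of -3.61 (SE 0.58, edgeR adjusted p = 0.031). No read was assigned to its close paralog Chil4 in any library, but how reads shared by such copies were counted is not given in the sources used here, so the level of Chil3 is uncertain. Wfdc21 lost its call without control replicate 3 (adjusted p = 0.069), knockout replicate 2 (0.051) or knockout replicate 4 (0.053). Chil3 lost its call without control replicate 2 (0.064), control replicate 3 (0.141), knockout replicate 1 (0.073), knockout replicate 2 (0.108) or knockout replicate 4 (0.092). Over all alternatives the adjusted p ran from 3.6e-11 to 0.069 for Wfdc21 and from 7.4e-07 to 0.141 for Chil3.

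Cd177 encodes a surface glycoprotein of neutrophils that in humans presents proteinase 3 and binds PECAM1. It had 3.60, 5.01, 11.9 and 4.63 CPM in the knockouts, against 5.44, 13.1 and 13.7 CPM in the controls. Knockout replicate 3 lay inside the control range and the other knockouts below it. The log2 fold change was -0.77 (SE 0.43, edgeR adjusted p = 0.586), with no call in any alternative. Knockout replicate 3 thus lay below every control for 4 genes (Camp, Fcnb, Wfdc21 and Chil3), inside the control range for 3 (Ngp, Mmp9 and Cd177) and above it for 3 (Ltf, Lcn2 and Mmp8). Without that library the log2 fold changes were -5.88 for Camp, -4.86 for Wfdc21, -4.23 for Chil3 and -3.60 for Fcnb, all still called by edgeR. They were -1.28 for Cd177, -1.03 for Ltf, -0.93 for Lcn2, -0.96 for Mmp9 and 1.5 for Mmp8, none of them called.

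**Figure D2:**
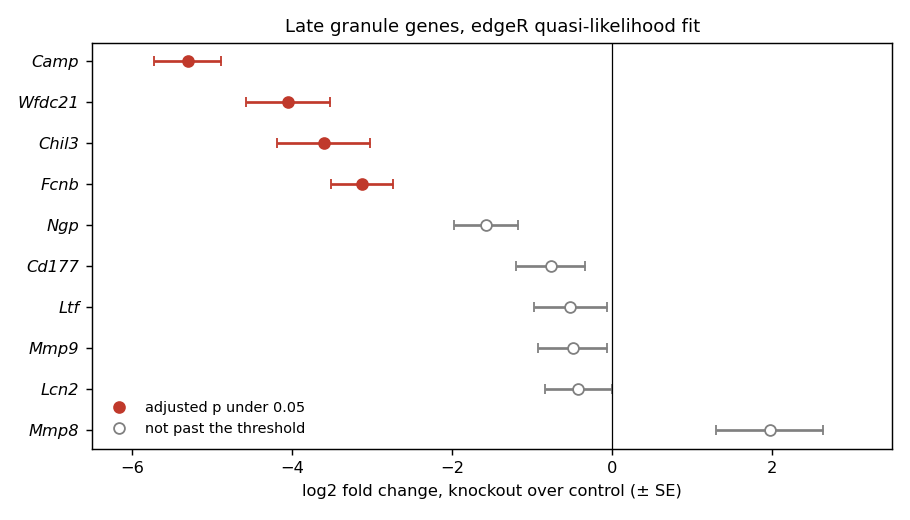
Log2 fold change of each late granule gene, knockout over control, with its standard error from the edgeR fit; filled red points passed an adjusted p of 0.05. The 4 called genes lie between -3.12 and -5.31, and Mmp8 is the gene on the positive side, at 1.97.

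The authors' deposited table lists the same 4 genes at an adjusted p under 0.05 (DESeq2). Of its 17422 genes with an adjusted p, 328 were lower and 54 higher at that threshold. It covers the same 7 libraries, so it is no independent evidence. In the authors' deposited table the log2 fold changes are -5.31 for Camp, -4.07 for Wfdc21, -3.64 for Chil3 and -3.12 for Fcnb. Ngp (-1.58) and Mmp8 (1.98) have adjusted p of 0.116 and 0.096 in the authors' deposited table.

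The order of the genes by level differed between the groups. On the scale of CPM per kilobase of annotated exon, which allows genes to be compared, control levels were highest for Camp (237 ± 76), Ngp (203 ± 73) and Fcnb (124 ± 40), followed by Ltf (46.5 ± 16.3) and Lcn2 (34.6 ± 12.6). These spreads are between libraries (SD, n = 3). Within each control library Camp lay above Ngp, and Ltf above Lcn2. Knockout levels per kilobase were highest for Ngp (67.9 ± 42.6), Ltf (32.3 ± 20.6) and Lcn2 (25.8 ± 15.8). Fcnb (14.2 ± 8.2) and Camp (5.94 ± 4.01) followed (SD, n = 4). Within each knockout library Ngp lay above both Ltf and Lcn2. Ltf lay above Lcn2 in each knockout but replicate 1 (11.2 against 12.5 per kilobase). By group mean, Camp was at rank 5 of the 10 in knockouts and rank 1 in controls. Of the lower genes, Wfdc21 had 0.665 ± 0.612 per kilobase in knockouts and 11.3 ± 3.9 in controls, Cd177 2.21 ± 1.33 in knockouts and 3.78 ± 1.62 in controls, and Mmp9 0.249 ± 0.139 in knockouts and 0.351 ± 0.115 in controls. Chil3 had 0.169 ± 0.151 per kilobase in knockouts and 2.12 ± 1.02 in controls, and Mmp8 0.757 ± 0.472 in knockouts and 0.191 ± 0.138 in controls.

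The make-up of the late granule reads differed between the groups. Camp supplied 1.5 ± 0.1% of the reads of the 10 genes in the knockouts and 20.9 ± 0.6% in the controls. Fcnb supplied 6.59 ± 0.73% in the knockouts and 19.3 ± 0.5% in the controls. Ltf made up 36.8 ± 6.2% in the knockouts and 18.5 ± 0.5% in the controls, and Lcn2 23.1 ± 0.5% in the knockouts and 10.4 ± 0.3% in the controls (SD, n = 4 and 3). These shares add to a fixed total, so a smaller share of one gene raises those of the others. Knockout replicate 3 did not stand apart in them: its summed level of the 10 genes was 559 CPM, against 139, 233 and 249 CPM in the other knockouts and 529, 1096 and 970 CPM in the controls, but the share of Camp lay between 1.3% and 1.6% over all knockouts.

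Reads relative to Ltf in the same library do not depend on how libraries are scaled, and a gene's length cancels between libraries. Ltf was chosen for this after the values were seen, and Camp, Fcnb, Wfdc21 and Chil3 already had no overlap in CPM. The p-values of the ratios therefore describe the separation and are no independent evidence. Camp had 0.056, 0.033, 0.043 and 0.037 reads per Ltf read in the knockouts, against 1.16, 1.08 and 1.14 in the controls. The ratio was thus near 1 in every control and under 0.06 in every knockout, knockout replicate 3 included. The difference in mean log2 ratio was -4.77 for Camp (two-sided exact permutation test over 35 splits, p = 0.0286, the smallest possible). It was -2.53 for Fcnb, -3.79 for Wfdc21 and -3.45 for Chil3, each with the same smallest p = 0.0286 in the exact permutation test. For Mmp8 it was 2.90 (exact permutation p = 0.0286), with 0.0155 to 0.0172 reads per Ltf read in the knockouts and 0.000526 to 0.00564 in the controls; without control replicate 3, which had 2 Mmp8 reads, the difference was 1.87.

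Ngp had 1.29, 0.667, 0.768 and 0.566 reads per Ltf read in the knockouts, against 1.49, 1.52 and 1.599 in the controls, a difference in mean log2 ratio of -0.97 (exact permutation p = 0.057). The groups did not overlap for Ngp, but knockout replicate 1 lay close to the controls. Lcn2, Mmp9 and Cd177 overlapped between groups, with differences of 0.17, 0.11 and -0.12 (exact permutation p = 0.457, 0.800 and 0.743). In all, 6 of the 9 ratios had no overlap between groups. Of all other tested genes, 1.93% had none when set against Ltf in the same way. Each ratio carries the spread of Ltf, which overlapped between groups, so 1.93% is not a fair background for genes that vary with Ltf. On CPM, 4 of the 10 late granule genes and 11.2% of all tested genes had no overlap. The p-values of the 9 ratios are not adjusted for their number. With Lcn2 as the denominator Camp differed by -4.94 and Ngp by -1.15 (exact permutation p = 0.0286 for each).

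**Figure D3:**
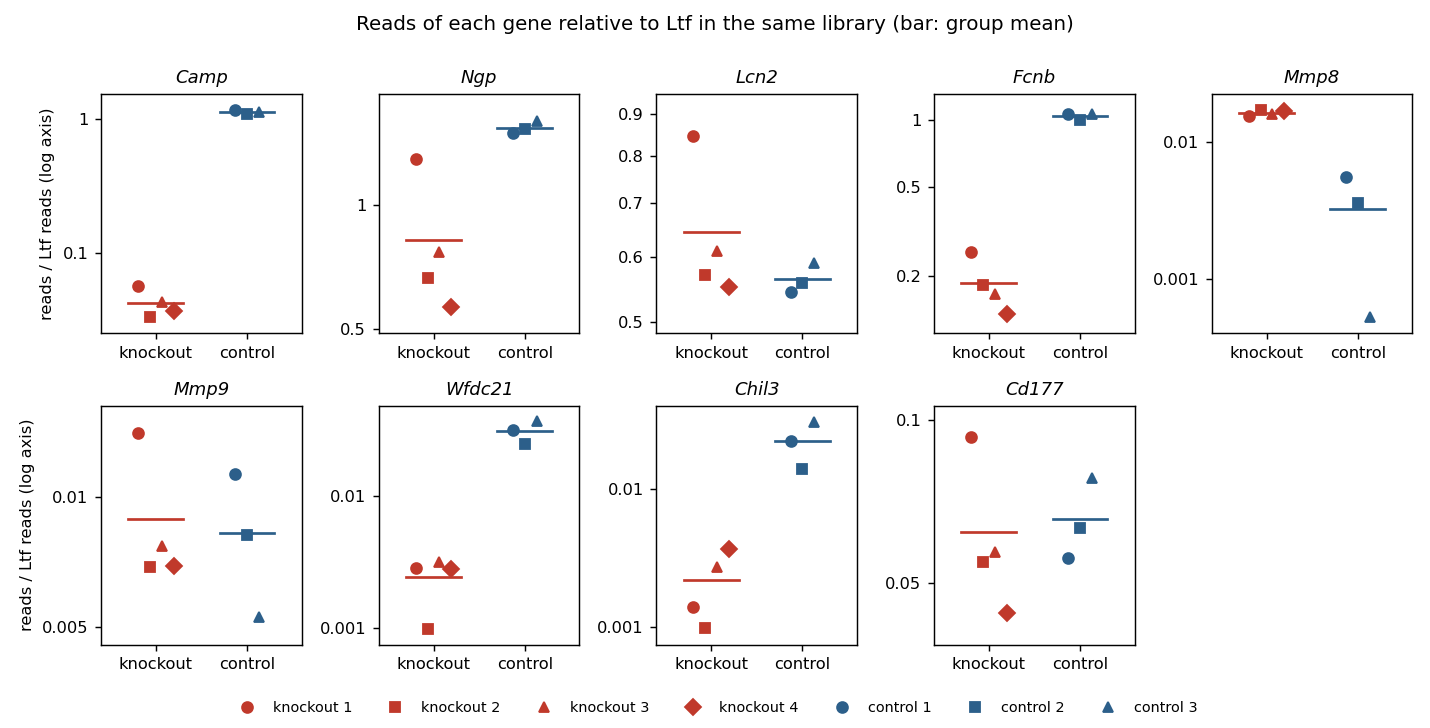
Reads of each gene divided by the reads of Ltf in the same library, on a log axis, with knockouts on the left and controls on the right; points are libraries and bars are group means. Camp lies between 0.033 and 0.056 in knockouts and between 1.08 and 1.16 in controls, while Lcn2, Mmp9 and Cd177 overlap.

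Camp, Ngp and Ltf lie near each other on mouse chromosome 9 (GRCm38.p6, RefSeq), Camp from 109847377 to 109849456 on the minus strand, Ngp from 110419808 to 110423012 and Ltf from 111019292 to 111042766 on the plus strand. They span 1.20 Mb. Of the other protein-coding genes between Camp and Ltf 18 were tested and 0 were called in edgeR. Over all tested genes 0.545% were called lower and 0.0136% higher, so 0 of 18 is near that share. In this set the log2 fold changes ran from -0.18 to 0.21 with a median of 0.05. Mmp8 is on the same chromosome, from 7558429 to 7568486. Lcn2 (32384637 to 32387739), Fcnb (28076479 to 28084910) and Mmp9 (164940326 to 164955850) are on chromosome 2, Chil3 (106147554 to 106167564) on chromosome 3, Cd177 (24743983 to 24760334) on chromosome 7 and Wfdc21 (83746940 to 83752646) on chromosome 11. No other gene of GENCODE M21 overlaps any of the 10. The counts are summed over exons, so they do not separate isoforms.

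Most of the azurophil granule genes, which are made earlier, fell. Of 9 azurophil granule genes 7 were lower and 0 higher by edgeR, with a median log2 fold change of -1.44. For this list and those below, the share over all tested genes was 0.545% lower and 0.0136% higher. Elane, the neutrophil elastase, had a mean of 49.7 CPM in knockouts and 368 CPM in controls (log2 fold change -2.89, adjusted p = 0.0020). Prss57, a serine protease of the same granules, had 5.06 CPM in knockouts and 30.0 CPM in controls (log2 fold change -2.56, adjusted p = 0.0031). Mpo, Prtn3, Ctsg, Ms4a3 and Srgn were also called, with log2 fold changes between -1.64 and -0.998. All 9 were lower at an unadjusted p under 0.05, which 10.9% of all tested genes reached in either direction. The number called was 2 without control replicate 2, control replicate 3 or knockout replicate 2. It was 3 without knockout replicate 1 or 4. Whether azurophil and late granule genes differ in how often they are called was not tested.

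Of 18 other genes of late granules and late neutrophils 16 were tested, 1 was lower and 0 higher, with a median of -0.59. Hp, haptoglobin, which granulocytes store and hepatocytes secrete, had 38.6 CPM in knockouts and 121 CPM in controls (log2 fold change -1.65, edgeR adjusted p = 0.044). Chil1, a chitinase-like relative of Chil3, had 2.15 CPM in knockouts and 9.52 CPM in controls (log2 fold change -2.13, edgeR adjusted p = 0.069), and Olfm4, a specific granule glycoprotein, 57.7 CPM in knockouts and 179 CPM in controls (-1.63, edgeR adjusted p = 0.139). Pglyrp1, a peptidoglycan recognition protein, had 22.0 CPM in knockouts and 58.6 CPM in controls (-1.41, edgeR adjusted p = 0.110). The count of called genes in this list was 0 when any library but control replicate 1 or knockout replicate 3 was left out, or with a minimum mean of 1 CPM, 6 without knockout replicate 3, 4 with no filter and 5 with DESeq2, of which 4 were lower and 1, Adam8, higher.

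Of 10 granulocyte receptors 9 were tested. C5ar1, the receptor for complement C5a, was lower at 1.11 CPM in knockouts and 3.65 CPM in controls (log2 fold change -1.71, edgeR adjusted p = 0.010), 0 were higher and the median was -1.13. Csf3r, which binds granulocyte colony-stimulating factor, had 26.5 CPM in knockouts and 60.7 CPM in controls (edgeR adjusted p = 0.095). Fpr2, a formyl peptide receptor that in mice responds to cathelicidin, had 0.284 CPM in knockouts and 1.12 CPM in controls (edgeR adjusted p = 0.192). The count was 0 without control replicate 3 or knockout replicate 2, 2 without knockout replicate 3 and 3 with DESeq2 or no filter.

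Of 8 granulocyte transcription factors 1 was lower and 0 higher, with a median of -0.55. Gfi1, a repressor that granulocyte formation needs, had 14.46 CPM in knockouts and 44.4 CPM in controls (log2 fold change -1.62, edgeR adjusted p = 0.0097). Cebpe, which encodes C/EBP epsilon, had 24.2, 27.5, 49.2 and 29.7 CPM in the knockouts, against 32.2, 62.8 and 50.02 CPM in the controls. Knockout replicate 3 again lay inside the control range and the other knockouts below it. For Cebpe the log2 fold change was -0.56 (SE 0.27, edgeR adjusted p = 0.504). Cebpd had 8.57 CPM in knockouts and 16.8 CPM in controls (edgeR adjusted p = 0.095) and Spi1, which encodes PU.1, 54.9 CPM in knockouts and 80.2 CPM in controls (edgeR adjusted p = 0.386). The count was 0 without knockout replicate 2, and 2 without knockout replicate 3, with DESeq2 or with no filter.

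Of 6 listed partners of the granule proteins 5 were tested, with 0 called, 0 at an unadjusted p under 0.05, 0 by DESeq2 and a median of 0.00099. Over all tested genes edgeR called 0.545% lower and 0.0136% higher, and 10.9% had an unadjusted p under 0.05. DESeq2 called 2.68%. With shares this small, 0 of 5 says little about the partners. Slc22a17, a receptor for lipocalin 2, had 2.61 CPM in knockouts and 2.32 CPM in controls. Lrp1, a receptor that takes up lactoferrin, had 70.1 CPM in knockouts and 92.4 CPM in controls, and Timp3, an inhibitor of metalloproteinases, 92.5 CPM in knockouts and 91.5 CPM in controls. Pecam1 had 27.8 CPM in knockouts and 32.9 CPM in controls. Of 11 family relatives 6 were tested and 0 called by edgeR or DESeq2, with 2 lower at an unadjusted p under 0.05, which were Fcna and Chit1, a chitinase of macrophages with 0.237 CPM in knockouts and 0.755 CPM in controls.

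**Figure D4:**
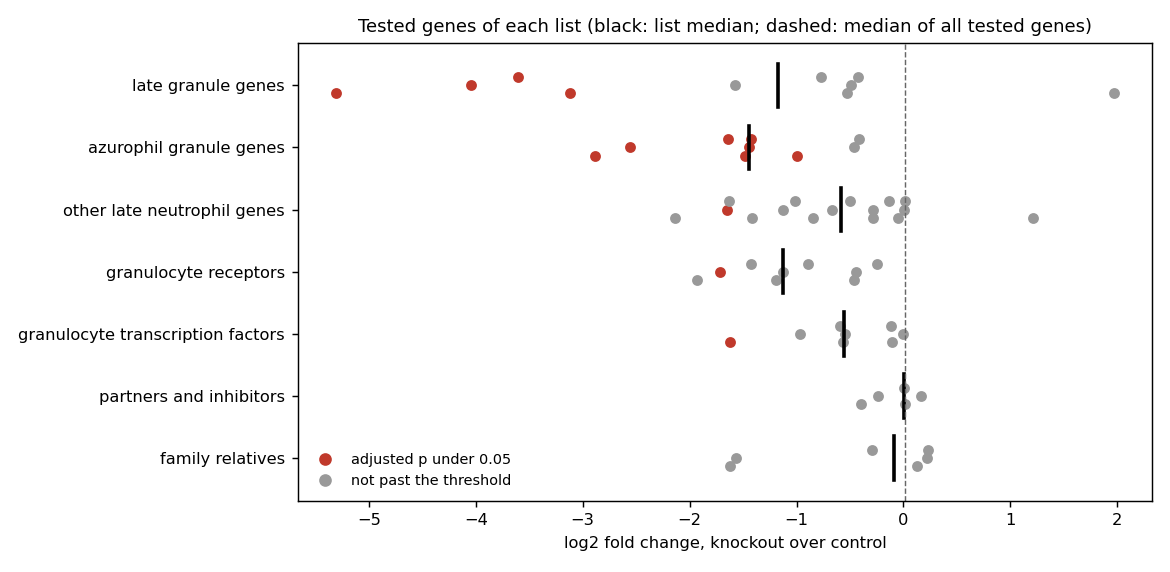
Log2 fold change, knockout over control, of every tested gene in each list; red points passed an adjusted p of 0.05, black ticks are list medians and the dashed line is the median of all tested genes. The late granule genes spread from -5.31 to 1.97 and the azurophil genes all lie below 0.

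Genes outside the list were ranked by how near their profile over the 7 libraries was to those of Camp and Ltf. Likeness was measured as the root mean square difference of log2(CPM + 2) after each gene's mean was subtracted. The candidates were the 12108 tested genes that averaged 1 CPM or more, without the 10 late granule genes, predicted genes, clone names and pseudogenes. The 5 nearest to Camp were Epx (0.78), F13a1 (0.84), Stfa3 (0.97), Elane (1.01) and Serpinb10 (1.22). The 5 nearest to Ltf were Ear1 (0.11), Ear6 (0.17), Ear2 (0.19), Tyrobp (0.25) and Cd52 (0.27), of which Ear1, Ear2 and Ear6 are near-identical ribonucleases of eosinophils whose reads the counting could have split. Camp itself changed more than any of its 5 neighbours but Serpinb10. Ear1 had 8.79, 19.7, 42.9 and 23.98 CPM in the knockouts, against 19.6, 48.9 and 43.1 CPM in the controls. Epx, the eosinophil peroxidase, had 4.64, 2.39, 3.88 and 2.63 CPM in the knockouts, against 37.6, 81.4 and 66.5 CPM in the controls. Prg2, the major basic protein of eosinophils, averaged 309 ± 176 CPM in knockouts and 317 ± 115 CPM in controls (SD, n = 4 and 3). Nearness to Camp picks genes with a large fall, so the place of Epx beside Camp is a result of the ranking. Epx was also less near to Camp (0.78) than Ear1 was to Ltf (0.11). Its highest knockout level was in knockout replicate 1, where Camp was highest in knockout replicate 3. Over 6 eosinophil markers the summed level was 180 to 674 CPM in knockouts and 278 to 614 CPM in controls, and knockout replicate 3 had the highest knockout level of 5 of the 6. It also had the highest knockout level of 6 of 6 monocyte markers. These summed to 34.5 to 121 CPM in knockouts and 202 to 302 CPM in controls, with no overlap. Of the monocyte markers F13a1 was called lower by edgeR, as was Epx of the eosinophil markers. Macrophage markers, of which 9 of 10 were tested and 0 called, summed to 69.1 to 121 CPM in knockouts and 151 to 247 CPM in controls, with no overlap. Erythroid markers, of which 6 of 6 were tested and 0 called, summed to 1827 to 2750 CPM in knockouts and 883 to 1734 CPM in controls, also with no overlap. The summed progenitor markers, with 0 of 5 called, did not overlap either (507 to 688 CPM in knockouts, 716 to 948 CPM in controls). Singly, Kit and Myb did not overlap. Cd34 (means of 78.4 CPM in knockouts and 78.9 CPM in controls), Flt3 and Ptprc did. The monocyte, macrophage and erythroid sets also held markers that overlapped singly, such as Csf1r, Vcam1 and Klf1. Of all tested genes taken singly, 11.2% had no overlap between groups, which is no background for sums. What part these cell types, eosinophils and monocytes included, had in the granule gene levels was not tested.

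**Figure D5:**
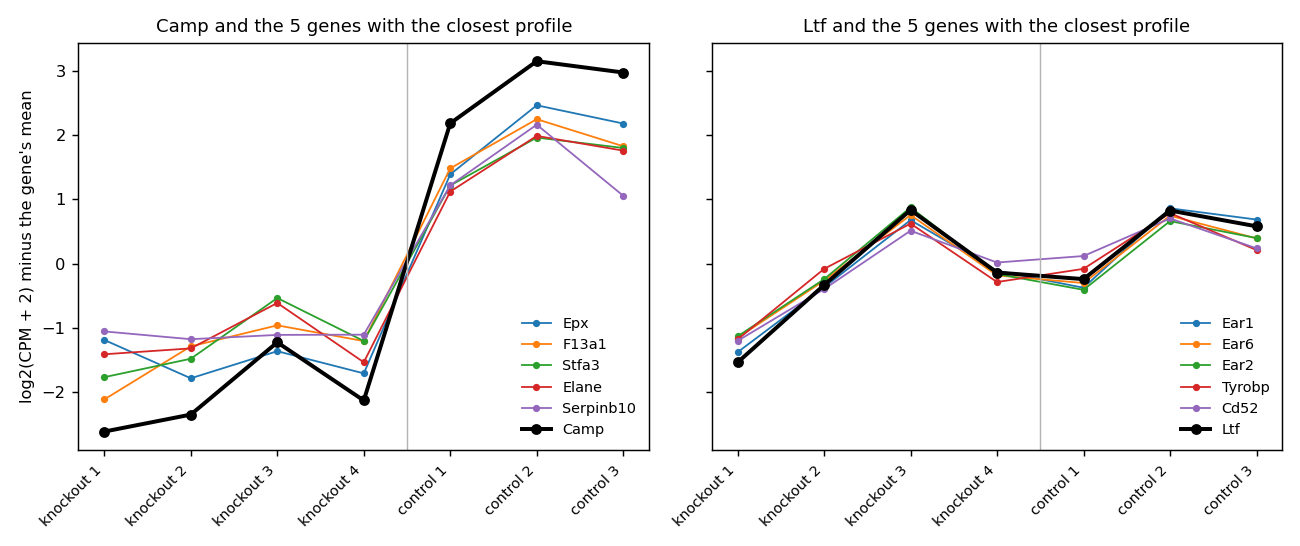
Profiles over the 7 libraries of Camp (left) and Ltf (right), in black, with the 5 genes nearest to each; the y axis is log2(CPM + 2) minus the gene's mean over all libraries, and knockouts stand left of the grey line. Camp and its neighbours drop in all 4 knockouts, while Ltf and all its neighbours reach control levels in knockout replicate 3. Ltf, Ear1, Ear2 and Ear6 also reach them in knockout replicate 4, and Ear1, Ear2 and Ear6 in knockout replicate 2.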

How the data were processed

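The authors deposited a table of raw counts, with gene symbols as rows and libraries as columns. HISAT2, featureCounts and the build mm10 are named, per the submitters' processing notes; versions, annotation and strand setting were not given in the sources used here, so reads of near-identical genes may be split. The authors' deposited table holds log2 fold changes with standard errors, a test score, raw and adjusted p-values (DESeq2) and a signal, which is counts divided by a size factor.

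Counts were filtered with filterByExpr, scaled by TMM and tested with edgeR 4.0.16 (R 4.3.3; glmQLFit and glmQLFTest, group as the only term, 7 libraries), with Benjamini-Hochberg adjustment over 14679 genes. SE is the log2 fold change over the root of F. CPM used TMM-scaled totals. The test was tested on simulated counts. Alternatives were 2 other scalings, 2 other filters, DESeq2 1.42.0, limma-voom (limma 3.58.1), robust dispersion, a replicate block and leaving out each library. Exact permutation tests used all 35 splits. The genes and lists were chosen with earlier results of these data known; the genes named are the 10, up to 4 of each list with the smallest p, called list genes, and the 5 nearest to Camp and to Ltf; markers and relatives named beside these were chosen after values were seen. A gene that this rule names is not reported here. Exon lengths came from GENCODE M21. Libraries of a group differed by more than sampling noise (chi-square per degree of freedom at least 8.50).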

Additional observations from a re-analysis of the deposited data

Results flagged for a closer look

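Of 68 values checked over the 4 knockout libraries, 6 had 1 library standing apart from the other knockouts; chance flags about 5% of such groups. In knockout replicate 3, Ngp had 161 CPM (others 50.1 to 61.3 CPM, controls 147 to 317 CPM). Cd177 had 11.9 CPM there (others 3.60 to 5.01 CPM, controls 5.44 to 13.7 CPM). Prss57 had 7.15 CPM there (others 4.2 to 4.5 CPM, controls 20.3 to 35.1 CPM). The summed T lineage markers reached 37.2 CPM there (others 2.13 to 4.70 CPM, controls 2.72 to 3.77 CPM). In knockout replicate 1, reads of Mmp9 relative to Ltf were 0.0141 (others 0.00688 to 0.00770, controls 0.00526 to 0.0113), from 10 Mmp9 reads. Progenitor markers summed to 507 CPM there (others 660 to 688 CPM, controls 716 to 948 CPM).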

How the results depend on the processing

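The direction of all 10 late granule genes held in all 15 alternatives. The number called lower was 4, and from 1 (without control replicate 3 or knockout replicate 2) to 5 when single libraries were left out; none was called higher in any fit (edgeR, with 1 at an unadjusted p under 0.05; DESeq2 0). Leaving out single libraries gave medians from -1.70 to -0.98. All genes called numbered 82, and 228 with no filter, 393 with DESeq2 and 21 to 124 without single libraries. With the replicate block, 4 late granule genes, 5 (rather than 1) of the other late neutrophil genes and 121 genes in all were called; the numbers are not shown to pair libraries, as deviations of same-numbered libraries correlated at 0.28, 0.094 and 0.016. In read ratios, changed denominators were chosen after seeing the data. With the sum of the other 9 genes as denominator, the difference for Ngp turned to 0.0072 and for Cd177 to 0.87, Lcn2 went to 1.36 and Mmp9 to 1.09 (exact permutation p = 0.0286 for each), and Chil3, at -2.48, no longer had the smallest p (exact permutation p = 0.057); with Lcn2, that for Mmp9 turned to -0.061. That sum holds Camp and Fcnb, which fell. Genes with few reads (Mmp8, Mmp9, Wfdc21, Chil3) are limited by depth.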

Other observations

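Some late neutrophil genes were too low to test. Retnlg had 0 to 7 reads per knockout library and 1 to 7 per control library, Lrg1 had 1 to 5 in knockouts and 8 to 25 in controls, and Fpr1 had 2 to 7 in knockouts and 10 to 13 in controls. Adam8, a metalloproteinase-disintegrin of neutrophil granules chosen after its values were seen, had a log2 fold change of 1.21 (edgeR adjusted p = 0.179; DESeq2 adjusted p = 0.011). It averaged 9.65 ± 3.33 CPM in knockouts and 4.15 ± 1.39 CPM in controls (SD, n = 4 and 3), with all 4 knockouts above all 3 controls, where 11.2% of all tested genes had no overlap between groups.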
